A study of Mus musculus with 26 samples.

Results

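The genes described here encode 9 cofactors of nuclear receptors, the proteins through which these hormone-controlled transcription factors switch their target genes up or down: Nrip1, Ncor1, Lcor, Ncoa1, Ncoa2, Ncoa3, Ncoa7, Crebbp and Ep300. They were taken by name, as 9 of the 21938 protein-coding genes of the mouse annotation, with Nrip1 selected on its change in the authors' own RNA-seq comparison. The fold changes and p-values of that comparison are not used here. The data come from E14, an established mouse embryonic stem cell line, in 2 states. In mESC+, the cells were kept with leukemia inhibitory factor (LIF), which holds them in the pluripotent state, while in mESC- LIF was withdrawn and 1 µM retinoic acid (RA) was given, each for 4 h before harvest. Both changes were made at once in mESC-, so their parts cannot be told apart. The series holds 26 libraries: 6 of polyA RNA-seq (3 per state), 2 of ATAC-seq (1 per state) and 18 of ChIP-seq, of which 8 (3 histone marks and an input per state) went into the enhancer predictions used here. Because there was 1 ATAC-seq library and 1 library per histone mark in each state, no replicate error can be set beside a difference between mESC+ and mESC-, and no test was made.

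Retinoic acid receptors sit on DNA as heterodimers with retinoid X receptors and exchange corepressors for coactivators when the ligand binds. Corepressors such as NCOR1 bring in the histone deacetylase HDAC3, the p160 coactivators NCOA1, NCOA2 and NCOA3 recruit the histone acetyltransferases CREBBP and EP300, and NRIP1 (RIP140) and LCOR are corepressors that are recruited by receptors carrying their ligand. NCOA7 is a coactivator that binds receptors by a separate interaction domain. The receptors bind pairs of the hexamer AGGTCA or its relatives, typically as direct repeats spaced by 1, 2 or 5 bases.

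Nrip1 (ENSMUSG00000048490) lies on the minus strand at chr16:76287400-76373827 (GRCm38) and spans 86.4 kb. The sequences shown first are those that the ATAC-seq peaks around Nrip1 point to. ATAC-seq cuts open chromatin with a transposase, and a peak is a stretch where the cuts pile up over the local background (fold enrichment). In every window the capitals mark the hexamer AGGTCA, or its relatives AGTTCA or else GGGTCA or else GGTTCA, on either strand. A hexamer of the minus strand therefore appears as its reverse complement. The first window holds 300 bases around the summit of the strongest mESC- peak that no mESC+ peak overlapped, in a Nrip1 intron 41.5 kb downstream of the gene start, at chr16:76332178-76332477. The second holds the same length around a weak mESC- peak 24.6 kb upstream of the start, at chr16:76398245-76398544, and is shown for its hexamers. Both are written along the plus strand of GRCm38.
Nrip1 intron peak: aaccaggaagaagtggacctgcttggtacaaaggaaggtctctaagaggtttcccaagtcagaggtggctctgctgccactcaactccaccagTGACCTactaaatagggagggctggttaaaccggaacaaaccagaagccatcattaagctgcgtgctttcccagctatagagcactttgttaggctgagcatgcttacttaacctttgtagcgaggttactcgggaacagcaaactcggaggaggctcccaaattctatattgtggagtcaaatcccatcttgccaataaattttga
Nrip1 upstream peak: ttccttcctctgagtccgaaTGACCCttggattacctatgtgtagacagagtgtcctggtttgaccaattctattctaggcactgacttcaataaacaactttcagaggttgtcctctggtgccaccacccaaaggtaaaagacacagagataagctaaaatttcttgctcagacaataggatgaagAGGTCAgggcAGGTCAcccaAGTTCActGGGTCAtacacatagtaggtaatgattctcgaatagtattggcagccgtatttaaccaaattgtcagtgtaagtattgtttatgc
The third sequence is the 250 bases before a RefSeq start of Nrip1 in build GRCm38.p6, at chr16:76373050-76373299 on the minus strand. It is shown because the strongest peak at the Nrip1 start lies over it in both states.
Nrip1 promoter: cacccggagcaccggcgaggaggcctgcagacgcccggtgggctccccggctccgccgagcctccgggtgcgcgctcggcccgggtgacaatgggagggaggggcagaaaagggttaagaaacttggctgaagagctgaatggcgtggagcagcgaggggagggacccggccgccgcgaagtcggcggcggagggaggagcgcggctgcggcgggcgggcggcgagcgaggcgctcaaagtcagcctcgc
The intron window held 1 hexamer and no direct repeat. The upstream window held 5 hexamers, 4 of them on the plus strand within 34 bases at chr16:76398432-76398465, spaced by 4, 4 and 2 bases. The promoter stretch held no hexamer, 32 CpG dinucleotides and 73.6% G or C. A further RefSeq promoter of Nrip1, not printed, covers the end of the gene given above, at chr16:76373778-76374077. Its 300 bases held 3 hexamers, 6 CpG dinucleotides and 52.7% G or C, and its peaks had fold enrichments of 4.28 in mESC+ and 4.32 in mESC-.

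The starts of embryonic stem cell genes were open in both states. Of 10 stem cell markers, 9 (among them Pou5f1, Sox2 and Nanog) had an ATAC-seq peak within 1 kb of the gene start in both lists, and Esrrb had none in either. Of 10 markers of blood, liver, heart, neurons and fibroblasts, 4 (Cd3e, Syp, Col1a1 and Dcn) had such a peak in both lists, and their part in the results below was not tested. Over all protein-coding genes, 67.7% had such a peak in mESC+ and 66.4% in mESC-, so a start peak alone does not mark stem cells. The mESC+ list held 163484 peaks and the mESC- list 141465. In bulk samples like these, fewer open cells and less opening per cell cannot be told apart. The files give peaks and no read counts, so the sequencing depth behind them is unknown, and a peak missing from a list says that the caller did not pass it there, not that the region was closed.

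In the RNA-seq table, 1 of the 9 genes was listed. This was Nrip1, at an authors' mean normalized signal of 1185 over the 6 libraries of both states, at the 63.1st percentile of the 2189 genes listed, whose median was 626. Of all protein-coding genes, 9.04% were listed, but as Nrip1 was selected on this table, nothing is read from its row. The other 8 genes have no row, which gives no level for them. Among 28 further receptor cofactors, 3 were listed: Ctbp2, a corepressor, at a mean of 12975, Zmiz1, a coactivator of the PIAS-related family, at 3210, and Bcor, a corepressor of Polycomb complexes, at 2500. These means pool both states and say nothing of a difference between them.

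The chromatin around Nrip1 held more peaks in mESC- than in mESC+, with 28 against 20 within 100 kb of the gene body. For each of the other 8 genes the order was the reverse, as it was for the whole lists, with 141465 peaks in mESC- against 163484 in mESC+. In mESC-, 10 of the 28 Nrip1 peaks were overlapped by no mESC+ peak, a share of 35.7% (exact 95% interval 18.6 to 55.9), while 14.1% of all mESC- peaks were. In mESC+, 2 of the 20 Nrip1 peaks were overlapped by no mESC- peak, or 10% (1.23 to 31.7), while 26.1% of all mESC+ peaks were. These intervals cover counting error only. At Nrip1 the interval lay above the background share in mESC- and held it in mESC+. The intervals take neighbouring peaks of 1 locus as independent, so they describe the counts and are no test. The mESC+ share rests on few peaks: it was 22.2% (2 of 9) among peaks with a −log10 q of at least 10, where 27.5% of all were, and 20% (4 of 20) when an overlap of 50% of the shorter peak was asked, where 27.4% of all were.

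The other 8 genes lay near the background in both lists. Together, 47 of their 343 mESC- peaks had no mESC+ peak (13.7%, 10.2 to 17.8), and 84 of their 375 mESC+ peaks had no mESC- peak (22.4%). Among the corepressors, the mESC- share was 6 of 49 peaks (12.2%) at Ncor1 and 6 of 36 (16.7%) at Lcor. Among the p160 coactivators, it was 5 of 52 (9.62%) at Ncoa1, 8 of 50 (16%) at Ncoa2 and 7 of 53 (13.2%) at Ncoa3. Ncoa7 had 6 of 38 (15.8%). The acetyltransferase genes had the lowest and the highest share of the 8, with 2 of 28 (7.14%) at Crebbp and 7 of 37 (18.9%) at Ep300. Every one of these intervals held the background share, and those of neighbouring genes in the order overlapped. In mESC+ the shares ran from 14.3% at Ncoa1 (8 of 56) to 28.2% at Ep300 (11 of 39).

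**Figure D1:**
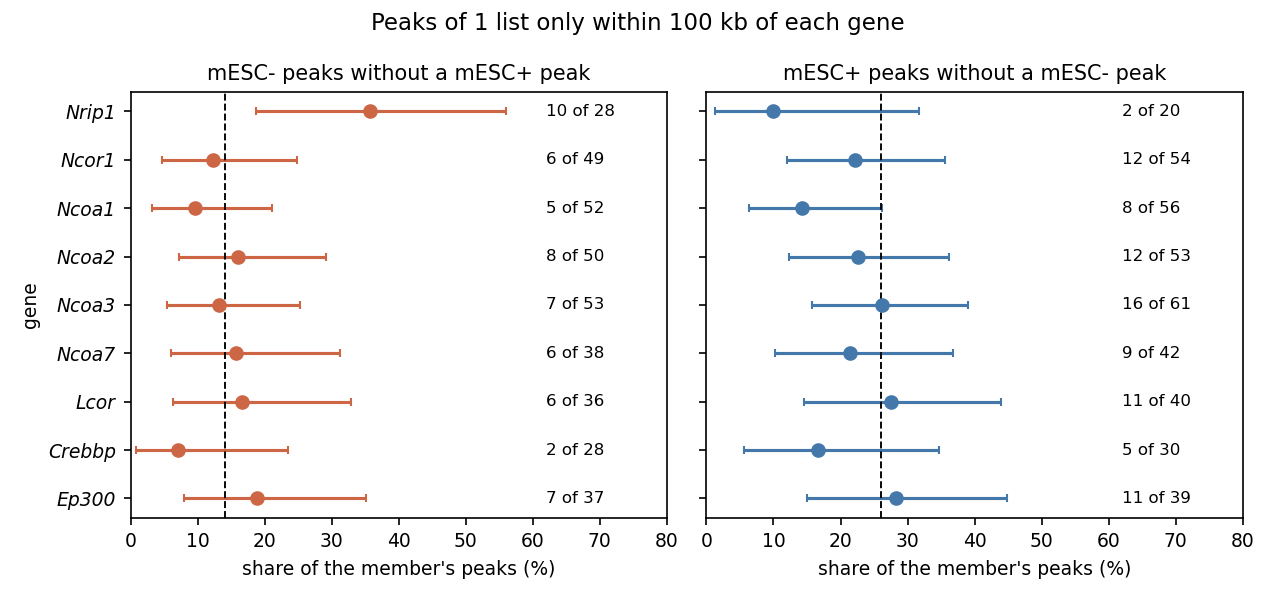
Share of the ATAC-seq peaks within 100 kb of each gene (%) that had no peak of the other state, with exact 95% intervals that cover counting error only, for the mESC- list (left) and the mESC+ list (right). Dashed lines give the share over all peaks, 14.1% and 26.1%. In mESC-, the interval of Nrip1 (10 of 28 peaks) lies above the dashed line, and those of the other 8 genes cross it.

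The windows differ in what else they hold. No other protein-coding gene starts within the Nrip1 window of 286 kb, which held 6.98 peaks per 100 kb in mESC+ and 9.78 in mESC-. The other windows held the starts of 1 to 6 further protein-coding genes, with 6 at Ncor1 (Adora2b, Zswim7, Ttc19, Pigl, Cenpv and Ubb) and 1 at Ncoa2 (Prdm14), so that their peaks may belong to a neighbour. Ncoa3, whose window also holds the starts of Zmynd8 and Sulf2, had the densest peaks, with 21.7 per 100 kb in mESC+ and 18.9 in mESC-. Over the 12509 protein-coding genes with 20 or more mESC- peaks in the same window, the median share without a mESC+ peak was 12%, and the 5th and 95th percentiles were 3.57% and 24%. A share of at least that of Nrip1 was found for 31 of them (0.248%), Nrip1 included, a comparison chosen after the share of Nrip1 was seen. The gene windows overlap each other, so that these genes are not independent. Of the 28 further cofactors, 25 had 20 or more mESC- peaks, with shares from 0 to 24.5% and a median of 10.8%, and none of these reached the share of Nrip1. Among those with fewer peaks, the highest share was 50% (2 of 4).

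The 10 Nrip1 peaks of mESC- alone stood on both sides of the start and inside the gene. In the Nrip1 introns lay 4 of them, at 3.59, 15.2, 41.5 and 69.3 kb downstream of the start, with fold enrichments of 5.62, 3.76, 11.9 and 7.01. Upstream of the start lay 3, at 12.9, 24.6 and 25.9 kb, with fold enrichments of 4.74, 4.15 and 6.52, the first of them in an intron of the gene model Gm49587. Beyond the 3' end of the gene lay the remaining 3, at 95.1, 147 and 173 kb from the start, with fold enrichments of 5.93, 5.16 and 5.76. The 2 peaks of mESC+ alone, 25.4 kb downstream and 58.8 kb upstream of the start, had fold enrichments of 3.73 and 3.93 and lay in the 4.29th and 6.95th percentile of their list. These values were lower than those of at least 9 of the 10 mESC- peaks, although fold enrichments of separate lists are not on 1 scale.

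**Figure D2:**
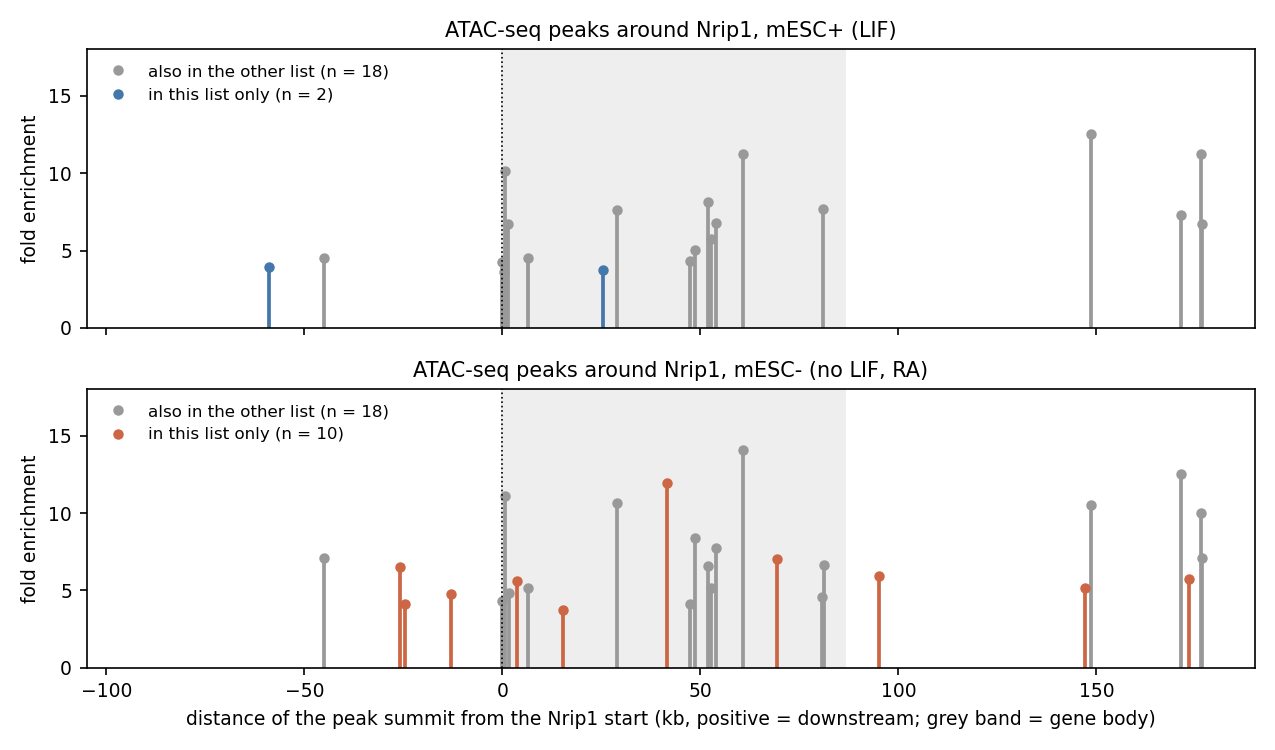
Fold enrichment of every ATAC-seq peak within 100 kb of Nrip1 (vertical axis) against the distance of its summit from the gene start in kb (horizontal axis, positive downstream), for mESC+ (top) and mESC- (bottom). Coloured peaks had no peak of the other state, 2 in mESC+ and 10 in mESC-, grey peaks had one, 18 in each, and the grey band is the gene body.

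The strongest of them, at chr16:76332219-76332402, was an intron peak whose sequence is printed above as the Nrip1 intron peak. It had a fold enrichment of 11.9 and a −log10 q of 19.5, and it lay at the 87.5th percentile of all mESC- peaks. Of the 19885 mESC- peaks without a mESC+ peak, 5 (0.0251%) were as strong or stronger, this one included, and their median fold enrichment was 4.74. This peak was picked as the strongest at Nrip1 after the values were seen. At the other 8 genes, the strongest mESC- peak without a mESC+ peak ran from 5.19 at Ep300 to 7.11 at Ncoa7, where it lay in an intron of the neighbour Trmt11. In mESC+, the strongest such peak among the 9 genes was 8.98 at Ncoa3, in an intron of the neighbour Sulf2.

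For peaks found in both states, the shares of Nrip1 peaks that ranked higher or lower in mESC- had intervals that held the shares over all peaks. Since fold enrichments of 2 lists cannot be set against each other, each peak was ranked by fold enrichment within its own list, with 100 for the strongest. Each mESC- peak was then set against the highest-ranked mESC+ peak that overlapped it. Where 1 mESC+ peak overlapped several mESC- peaks, each of these was set against it, so that weak parts of a split peak count as lower. Of the 18 Nrip1 peaks of mESC- with a mESC+ peak, 10 ranked higher in mESC- and 8 lower, with a median difference of 1.76 percentile points. The share of 55.6% has an exact 95% interval of 30.8 to 78.5, where 39.5% of all such peaks ranked higher and the median over them was -2.88. The other 8 genes had 113 of 296 ranking higher, with a median of -3.26. A rank more than 20 percentile points higher in mESC- was found for 4 of the 18 Nrip1 peaks (22.2%, 6.41 to 47.6), against 6.77% of all such peaks and 16 of 296 (5.41%) at the other genes. A rank more than 20 points lower was found for 2 of 18 (11.1%, 1.38 to 34.7), against 17.1% of all and 57 of 296 (19.3%). The step of 20 points was chosen after the values were seen, and the lists ranked differ in length.

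The 4 Nrip1 peaks that ranked over 20 points higher were distal. An intron peak 48.7 kb downstream of the start went from the 23.6th percentile in mESC+ (fold enrichment 5.01) to the 68.7th in mESC- (8.37). A peak 45.0 kb upstream went from the 15.9th (4.49) to the 56.3rd (7.11). A peak 171 kb downstream, beyond the gene, went from the 57.5th (7.30) to the 89.3rd (12.5). The fourth, an intron peak 28.9 kb downstream, went from the 60.5th (7.64) to the 81.5th (10.6). The strongest mESC- peak of the locus, in an intron 60.7 kb downstream, was present in both states, at the 82.7th percentile in mESC+ (11.2) and the 93.4th in mESC- (14.1). The 2 that moved down lay 1.54 kb downstream of the start, from the 53.0th to the 22.0th percentile, and 80.8 kb downstream, from the 60.6th to the 14.7th. At the latter place 1 mESC+ peak overlapped 2 mESC- peaks, the other of which was at the 51.5th percentile.

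**Figure D3:**
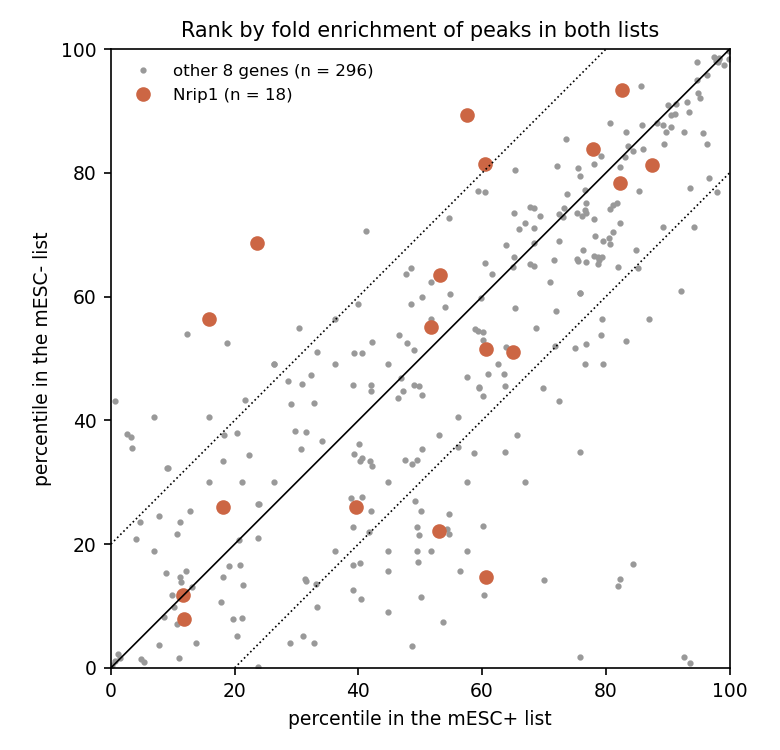
Percentile by fold enrichment within the mESC- list (vertical axis) against that within the mESC+ list (horizontal axis) for mESC- peaks that a mESC+ peak overlapped, at Nrip1 (18 large points) and at the other 8 genes (296 small points). The solid line marks equal rank and the dotted lines a difference of 20 percentile points, above which 4 of the 18 Nrip1 points lie.

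At the gene starts, the 9 genes were open in both states. A peak within 1 kb of the start was present for 9 of 9 genes in mESC+ and 9 of 9 in mESC-, where 67.7% and 66.4% of all protein-coding genes had one. The strongest start peak ranked higher in mESC- for 4 genes and lower for 5, with a median difference of -0.17 percentile points. Over the 14403 protein-coding genes with a start peak in both lists, the median was -0.49, the 5th and 95th percentiles were -20.7 and 13.5, and 45.7% ranked higher in mESC-.

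Among the corepressors, Nrip1 had a start peak of 10.1-fold enrichment in mESC+ (78.0th percentile) and 11.1-fold in mESC- (83.9th), a difference of 5.92 points, which lies within the range of other genes. Its summit lay 677 and 683 bases downstream of the annotated start, over the promoter printed above. Ncor1 went from 9.81-fold (75.9th percentile) to 6.30-fold (45.7th), a difference of -30.2 points that the window made: its strong peak has its summit 1177 bases downstream in mESC+, and the mESC- peak at that place fell outside 1 kb. Over the RefSeq promoter of Ncor1 at that place, at chr11:62457283-62457582, the peak had 9.81-fold enrichment in mESC+ and 10.1-fold in mESC-. Lcor had the weakest start peak of the 9 in both states, 5.71-fold (39.2nd percentile) and 4.70-fold (16.7th), 22.5 points lower in mESC-, which is beyond the 5th percentile of all genes.

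Among the coactivators, the strongest peaks of the p160 genes in the 1 kb window held their rank within 4 points. Ncoa1 had 8.43-fold enrichment in mESC+ and 8.06-fold in mESC- (67.8th and 65.3rd percentile), Ncoa2 11.3-fold and 11.8-fold (83.3rd and 86.7th), and Ncoa3 10.5-fold and 10.8-fold (79.2nd and 82.7th). Over the RefSeq promoter of Ncoa1, however, the peak went from the 40.4th to the 11.1th percentile. The Ncoa2 summits lay 1559 and 1500 bases downstream of the start, so that only the edge of that peak reached into the window. The Ncoa2 window held 5 peaks in mESC+ and 2 in mESC-. Ncoa7 was at 9.35-fold and 8.96-fold (73.0th and 72.9th). The strongest start peaks of the acetyltransferase genes went opposite ways, with Crebbp from 9.79-fold (75.8th percentile) to 7.59-fold (60.7th) and Ep300 from 7.64-fold (60.4th) to 8.76-fold (70.6th). For Ep300 the summits lay at different places, 802 bases downstream of the start in mESC+ and 52 in mESC-. Over their RefSeq promoters both genes ranked higher in mESC-. There Crebbp went from the 30.7th to the 35.3rd percentile, and Ep300 from the 60.4th to the 65.5th. With 1 library per state, none of these differences has an error. They also depend on the width of the start window: with 500 bases in place of 1 kb, the difference was 72.2 points at Nrip1, 3.68 at Ncor1, -41.3 at Ncoa1, -3.64 at Ncoa2 and 29.4 at Ep300, and it was the same at the other 4 genes.

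**Figure D4:**
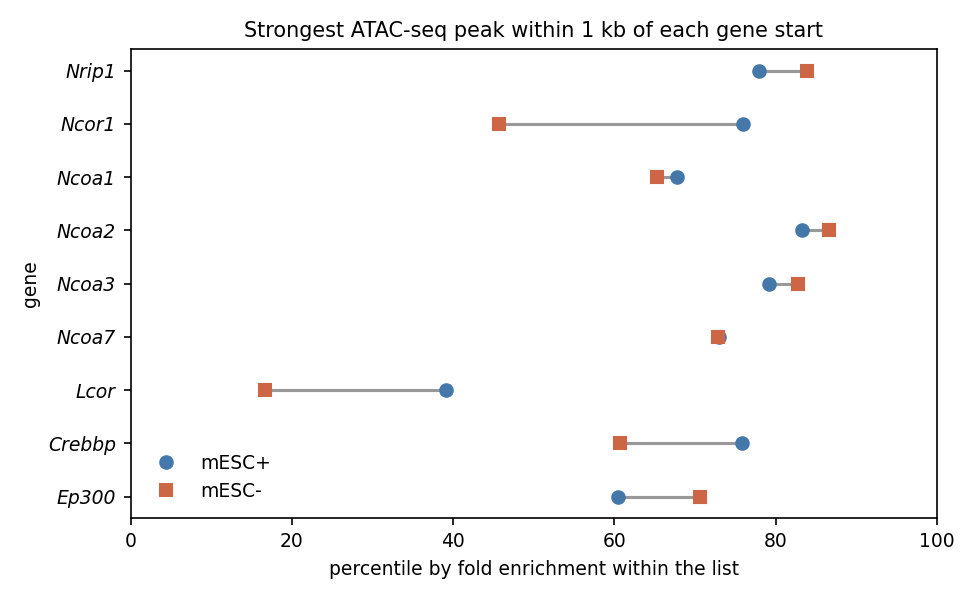
Percentile by fold enrichment within its own list (horizontal axis) of the strongest ATAC-seq peak within 1 kb of each gene start, for mESC+ (circles) and mESC- (squares). Nrip1 moves from 78.0 to 83.9, and the largest gap, at Ncor1, comes from a peak that lies just past 1 kb in mESC-.

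None of the authors' dynamic enhancer regions lay within 100 kb of any of the 9 genes. The dynamic regions are those for which the authors' enhancer probability, a value from 0 to 1 computed from H3K4me1, H3K4me3, H3K27ac and input, differed between the states in their permutation test. There were 327 of them, 186 of higher probability in mESC+ and 141 in mESC-. The test asked for a minimum difference between the states, here the paper's default. At a lower minimum the paper reports many more regions, so smaller changes in probability are not covered here. Within 100 kb, 0 of the 9 genes had a region, where 4.54% of all protein-coding genes had one, 2.56% a region higher in mESC- and 2.11% a region higher in mESC+. At such shares a count of 0 of 9 is near the background. The region nearest to Nrip1 lay 19.4 Mb away, where the probability was 0.912 in mESC+ and 0 in mESC-. The extra mESC- peaks at Nrip1 therefore lay outside the dynamic regions.

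The nearest region of any of the 9 genes lay 142 kb from Ncoa3, at chr2:166215401-166216400, where the probability went from 0 in mESC+ to 0.9 in mESC-. For Ncoa1 it lay 361 kb away (0.093 and 0.921), and for Ncoa2 391 kb away (0.794 and 0.009). For the other 5 genes besides Nrip1, the gap ran from 869 kb at Ncoa7 to 5.83 Mb at Ep300. Of the 28 further cofactors, 4 had a region within 100 kb, 2 of them higher in mESC- and 2 in mESC+. Of all protein-coding genes, 4.54% had one, 2.56% a region higher in mESC- and 2.11% a region higher in mESC+. As the 28 were chosen with earlier results of these data known, the difference from these shares was not tested. Zmiz1 held one of 5100 bases inside the gene, at chr14:25585701-25590800, at 0.0736 in mESC+ and 0.941 in mESC-. Ppargc1b, a coactivator of metabolic genes, had one at a gap of 61.2 kb (0.0089 and 0.846). Higher in mESC+ were a region 74.0 kb from Hdac3, the deacetylase partner of NCOR1 (0.892 and 0.019), and one 6.22 kb from Tbl1x, a subunit of the NCOR complex (0.762 and 0.0294). The 5 protein-coding genes with the most regions higher in mESC- within 100 kb were Camta1, Ap5z1, Foxk1, Papolb and Radil, with 3 each. The last 4 are neighbours that share the same 3 regions. As Nrip1 had none, this measure names no gene like it.

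Direct repeats of the receptor hexamer were rare at the peaks of the 9 genes, as they were at all peaks of both lists. The search took 2 hexamers on the same strand, spaced by 1, 2 or 5 bases, on both strands and with no mismatch, in 300-base windows around the summits. At Nrip1, 1 of 28 mESC- windows held one (3.57%, exact 95% interval 0.0904 to 18.3), where 1.24% of all mESC- windows did. In mESC+, 0 of 20 did, which allows a share of up to 16.8%, where 0.851% of all mESC+ windows did. The other 8 genes had 4 of 343 in mESC- (1.17%) and 3 of 375 in mESC+ (0.8%), near the shares over all windows. With 1 mismatch allowed over the pair, 6 of the 28 mESC- windows at Nrip1 matched (21.4%), where 8.93% of all mESC- windows did. These counts are small, and a match is a description of the letters, not a bound site. No repeat was found in 10 promoters of the 7 genes with an entry in the RefSeq table, where 0.588% of all promoters held one. Ncoa2 and Ncoa3 had no entry.

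The repeats found are given here to show which letters matched. The first is the last pair of the 4 hexamers in the upstream window printed above, the second lay in none of the windows and was met when whole peaks were searched, which was done for Nrip1 alone, and the capitals mark the hexamers, all on the plus strand.
Nrip1 upstream repeat: AGTTCActGGGTCA
Nrip1 downstream repeat: AGGTCAaaAGTTCA
Ncoa1 repeat: GGTTCAcctggAGGTCA
Ncoa2 repeat: AGGTCAtgAGTTCA
Ncoa3 repeat: GGGTCAgaGGTTCA
Crebbp repeat: AGGTCAggAGTTCA
The Nrip1 upstream repeat, at chr16:76398452-76398465, has a spacing of 2 and lay in a mESC- peak without a mESC+ peak. That peak was weak, with a fold enrichment of 4.15 at the 9.03rd percentile of the list. The Nrip1 downstream repeat, at chr16:76225461-76225474, also has a spacing of 2 and lay in a peak of both states 149 kb downstream of the start (10.5-fold in mESC-, 12.5-fold in mESC+), just past the end of the mESC+ interval.

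The run of hexamers upstream of Nrip1 was uncommon among open regions. A window with 5 or more hexamers on either strand was 1 of 28 at Nrip1, 0 of 343 at the other 8 genes and 0.225% of all mESC- windows (318 of 141403), a count chosen after the Nrip1 windows were read. At least 1 hexamer was present in 18 of 28 Nrip1 windows (64.3%), 180 of 343 windows of the other genes (52.5%) and 49.8% of all.

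The Ncoa1 repeat has a spacing of 5, at chr12:4308888-4308904, and lay beside an intron peak of mESC- alone, 168 kb downstream of the start, with a fold enrichment of 6.52. The repeats at Ncoa2, Ncoa3 and Crebbp have a spacing of 2 and lay at peaks of both states, that of Crebbp just past the end of the peak in each. Of these, Ncoa3 had the strongest peak and the one nearest to a start, 16.6 kb downstream, with a fold enrichment of 10.0 in mESC+ and 9.18 in mESC-. The Crebbp and Ncoa2 repeats lay beyond the 3' end of the gene, 196 kb and 303 kb downstream of its start. Their peaks had 5.84-fold and 6.04-fold enrichment in mESC+ and 4.72-fold and 5.13-fold in mESC-.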

How the data were processed

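E14 cells were profiled by polyA RNA-seq, Omni-ATAC-seq and ChIP-seq. The authors aligned reads to GRCm38 (BWA, and STAR 2.5.1b for ChIP-seq). From the deposited RNA-seq table only the mean normalized signal over all libraries was used. Its other columns hold the authors' own comparison (fold changes, standard errors, p-values), as do a p-value and a cluster column of the region table, and none was used. For ATAC-seq, the deposited lists give each MACS2 peak's fold enrichment (a ratio over local background), −log10 p and −log10 q; peaks were called per library, with settings not given in the sources used here. The deposited enhancer probability is a fraction per region and state.

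Peaks were counted within 100 kb of each GENCODE gene body, and peaks sharing at least 1 base were called shared. Intervals are exact (Clopper-Pearson, 95%). Ranks, overlaps and motifs were computed with Python 3.11.15, pandas 2.3.3, SciPy 1.17.1 and pysam 0.24.0 on GRCm38.p6, and the functions were tested on simulated data (21 of 21 checks passed). The 9 genes are all named, as are further cofactors with a dynamic region within 100 kb or a row in the RNA-seq table. The latter, the strongest peaks and the ranks over 20 points were named after their values were seen. Members, cofactors and markers were chosen with earlier results of these data known. Alternatives were a window of 50 kb, a window around the gene start, a −log10 q of at least 10, an overlap of 50%, a start window of 500 bases, other transcript starts, ranks by −log10 p, 1 mismatch and whole peaks. Protein motifs were planned and not analysed here, and the 10 libraries of further histone marks entered no comparison.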

Additional observations from a re-analysis of the deposited data

How the results depend on the processing

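No paired analysis was possible because each state had 1 ATAC-seq library and 1 library per histone mark, and no result comes from a test. For the same reason no replicate could be left out. The share of Nrip1 mESC- peaks without a mESC+ peak was 36.4% within 50 kb, around the gene start and at a −log10 q of at least 10 (4 of 11 peaks), and 42.9% with an overlap of 50% of the shorter peak. Alternatives added after seeing the data gave 30.3% within 200 kb and 47.8% (11 of 23) in the top 100000 peaks of each list, where 17.5% of all mESC- peaks had no mESC+ peak. For the other 8 genes that share moved to 7.04% at a −log10 q of at least 10 (9.38% of all peaks). The Nrip1 mESC+ share ran from 0% (0 of 12) in the top 100000 peaks to 22.2% at a −log10 q of at least 10, and was 20% with an overlap of 50%. In the top 100000 peaks it was 16.2% at the other genes (18.1% of all). Within 500 kb of the 9 genes, also added later, 2 dynamic regions were higher in mESC- and 2 in mESC+. The share over all genes was not computed at that width, so these counts have no background. With 1 mismatch, 21.4% of the Nrip1 mESC- windows (6 of 28) held a direct repeat, beside 8.93% of all windows.

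The gene-start ranks depended on the window most. The median difference was 0.0438 with ranks by −log10 p, as was that of Ncoa7. With 500 bases, Ncor1 went to 3.68 and Ncoa2 to -3.64, and Nrip1 to 72.2, since its strong start peak reached into that window in mESC- only. At a −log10 q of at least 10, 8 of 9 genes had a start peak in each list.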
